A study of Bos taurus and Ovis aries and Capra hircus with 27 samples.

Results

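Liver and kidney of cattle were compared in 6 messenger RNA libraries, 3 of liver and 3 of kidney, out of 27 libraries in the whole series. The members were chosen by the tissue in their labels: both groups came from indigenous cattle of about 4 years, for which the labels name no treatment, so that the groups shared strain and age and differed in tissue. By the study's methods every tissue was taken from 3 females of a population, so the livers and kidneys came from the same animals. The labels number the libraries 1 to 3 within each tissue but do not say that a number marks an animal. Of 24616 genes listed, 13476 exceeded 0.5 FPKM in at least 3 of the 6 libraries and were tested. FPKM relates fragments to the length of the transcript and to all mapped fragments of the library, so levels can be compared between genes of unequal length. The remaining 11140 genes were not tested, and 7110 of these were listed at 0 in all 6 libraries.

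The liver is made up mainly of hepatocytes, which secrete most proteins of blood plasma, make bile and urea, and in ruminants supply much of the body's glucose. The kidney is built of nephrons, in which a filter is followed by a chain of tubule segments, each with its own set of channels and carriers for salt, water, sugars, amino acids and acids. Each tissue therefore has a set of genes that define it, over a common base of genes that every cell needs. The table identifies genes by Ensembl numbers alone, and 0 of the 24616 identifiers could be paired with a symbol in the reference table used here (37063 genes). The markers that define hepatocytes or nephron segments could therefore not be looked up, the labelled tissues could not be checked against them, and gene groups are described below by their levels and not by function. In bulk tissue, fewer cells of a type and less RNA per cell cannot be told apart.

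The libraries separated by tissue. Over the genes tested, Pearson's r of log2(FPKM + 1) lay between 0.949 and 0.994 in the 6 pairs of the same tissue and between 0.527 and 0.580 in the 9 pairs of a liver with a kidney library. Kidney 1 and kidney 2 were the closest pair (r = 0.994). Over 1497 genes with a mean log2 level between 5 and 8, their log2 difference had a robust SD of 0.105, against 0.320 and 0.331 for these libraries with kidney 3 and 0.425 to 0.571 among the liver libraries. On the log2 scale, a gene had a median SD of 0.29 between liver libraries and 0.15 between kidney libraries, and 72.7% of the genes had the larger SD in liver. Liver 1 and kidney 3 stood further from their replicates than the others did. Liver 1 was more than 2 above both other liver libraries in 27 genes and more than 2 below both in 48, and kidney 3 in 36 and 31. In the other 4 libraries these numbers were between 0 and 11. Without liver 1 and kidney 3, an alternative chosen after the data were seen, 10365 genes were called in place of the 9823 given below, and 281 and 50 genes were at least 5 higher in liver and in kidney in place of 281 and 59.

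With deposited values, the typical gene was lower in liver than in kidney. The median log2 difference over all 13476 genes was −0.74, liver minus kidney. The genes tested had median levels of 5.16, 5.55 and 4.72 FPKM in the liver libraries and 9.28, 9.34 and 8.61 FPKM in the kidney libraries. Every kidney library thus lay above every liver library. The sums did not differ in the same way: the liver libraries summed to 602958, 472908 and 570938 FPKM and the kidney libraries to 555342, 556873 and 585368 FPKM, and these ranges overlapped. The factors that bring the libraries to a common median ratio were 0.752, 0.781 and 0.667 in liver and 1.41, 1.42 and 1.31 in kidney. The differences ranged widely about their median, with 5% and 95% quantiles of −2.92 and 2.67. Whether the shift of the median arose from the scale of the libraries or from expression was not tested. A change of scale moves the difference of every gene. Calls by size and by level and genes in a single tissue are therefore counted with deposited values. The same counts are given after each library was divided by its factor. The levels, shares of summed FPKM, most abundant genes and heart counts are given with deposited values.

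With deposited values, most genes that differed were higher in kidney. Of 13476 genes, 9823 passed a limma adjusted p of 0.05 (72.9%), 7849 of them higher in kidney (58.2% of the genes tested) and 1974 higher in liver (14.6%), and 10101 had an unadjusted p under 0.05 (75%). The libraries of the tissues did not overlap for 10323 genes (76.6%), with 8211 higher in all kidney libraries (60.9%) and 2112 higher in all liver libraries (15.7%). After median ratio scaling 7517 genes were called (56.3%) and the calls were balanced, with 3695 higher in kidney (27.7%) and 3822 higher in liver (28.6%) among 13350 genes. Since the scaling raised every liver library and lowered every kidney library, a call higher in liver could hardly be lost. Of the 13273 genes tested under both scalings, 1971 were called higher in liver under both, and 2 lost that call. Among the same genes, 3695 were called higher in kidney under both. Of the others called higher in kidney with deposited values, 4001 lost their call and 6 were called higher in liver. A further 1800 of the genes tested under both were called higher in liver only after scaling. The scaling could likewise hardly add a call higher in kidney. The 5666 genes called in the same direction under both scalings are thus close to the shorter list of each direction. Their number is no check of that direction.

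**Figure D1:**
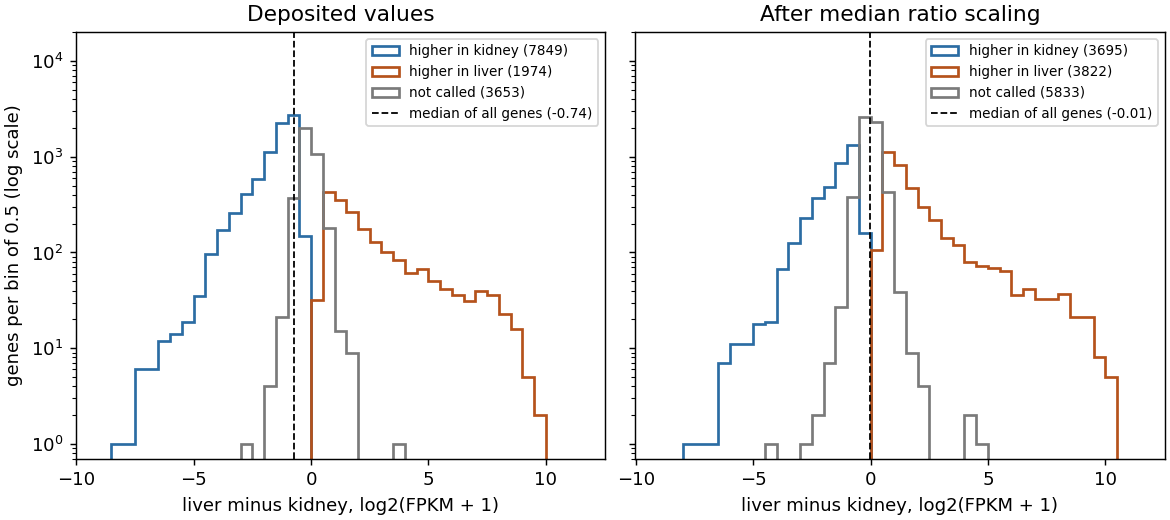
Number of genes by the liver minus kidney difference of log2(FPKM + 1), in bins of 0.5 on a log axis, with deposited values (left) and after median ratio scaling (right), for genes called higher in kidney, called higher in liver and not called. The dashed line is the median of all genes, at −0.74 on the left and −0.01 on the right. The arm towards liver reaches further out than the arm towards kidney in both panels.

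The direction depended on the size of the difference. With deposited values, among calls below 1 on the log2 scale, 460 genes were higher in liver and 2853 in kidney. Between 1 and 2 the numbers were 615 and 3387, between 2 and 3 they were 305 and 986, and between 3 and 5 they were 313 and 564. From 5 upwards the order was turned, with 281 genes higher in liver (2.09% of the genes tested) and 59 higher in kidney (0.438%). After median ratio scaling the numbers towards liver and kidney were 1230 and 1496 below 1, 1294 and 1336 between 1 and 2, and 516 and 600 between 2 and 3. The order was then already turned between 3 and 5, with 413 genes higher in liver and 231 in kidney, and from 5 upwards there were 369 against 32. The predominance of liver from 5 upwards was seen with both scalings. The scaling raised every liver library and lowered every kidney library, so it could hardly lessen that predominance and is no check of it. The class from 3 to 5 changed its direction under the same shift. Leaving out each library in turn gave 272 to 291 genes towards liver and 53 to 65 towards kidney. The liver thus held fewer genes above the kidney than below it with deposited values, but most of the genes with very large differences. On the log2(FPKM + 1) scale the change of low genes is understated, so that a difference of 5 was open only to genes that reached about 31 FPKM or more in the higher tissue.

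**Figure D2:**
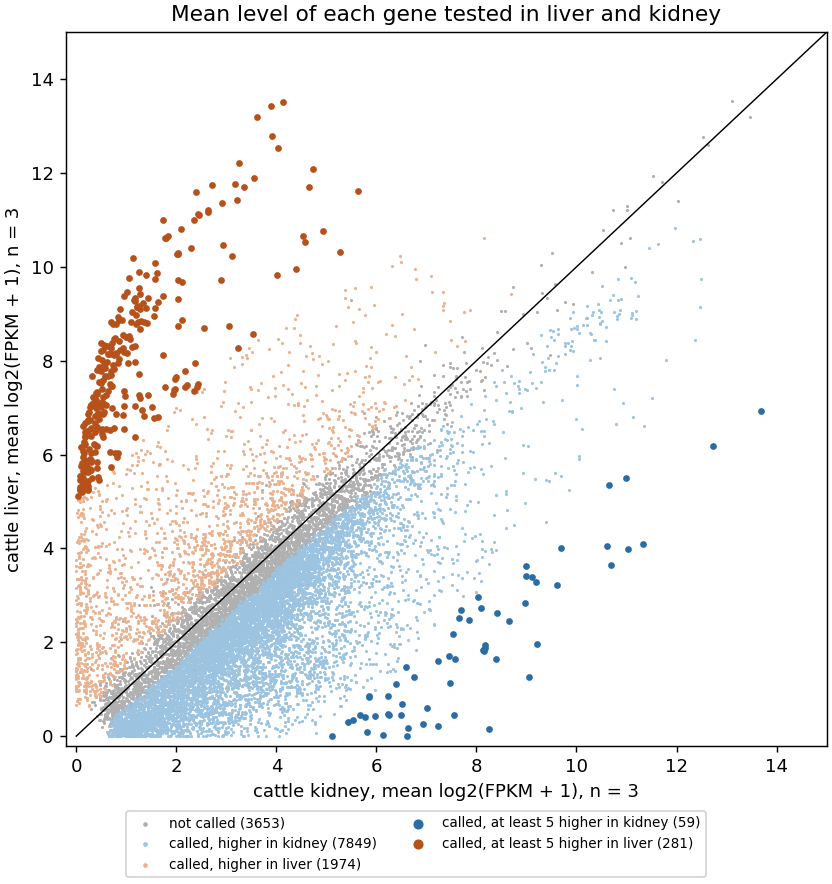
Mean log2(FPKM + 1) of each of the 13476 genes tested in cattle kidney (horizontal) and cattle liver (vertical), 3 libraries each. The line marks equal levels. Large points are the 281 genes at least 5 higher in liver and the 59 at least 5 higher in kidney, and most of the small coloured points lie below the line, on the kidney side.

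Calls were frequent at every level with deposited values. Between 66.0% and 77.1% of genes were called in the 6 classes of mean log2 level that were set. Among the 1194 genes with a mean below 1, 149 were higher in liver and 747 in kidney. Among the 2812 genes with a mean from 4 to 6, 528 were higher in liver and 1368 in kidney. The 573 genes from 6 to 8 had the largest part of calls towards liver, 141 against 237 (37.3%). The 179 most abundant genes, from 8 upwards, were again mostly higher in kidney, with 112 calls against 25 and a median difference of −1.25, beside −0.74 over all genes. After median ratio scaling the 3 upper classes turned. The genes from 4 to 6 then held 1098 calls towards liver and 519 towards kidney with a median difference of 0.32, those from 6 to 8 held 248 and 107 with a median of 0.51, and those from 8 upwards held 37 and 29 with a median of −0.34. Below a mean of 1 the calls stayed mostly towards kidney, with 187 towards liver and 398 towards kidney among 994 genes. The class from 1 to 2 did so too, with 508 and 893 among 2384 genes and a median of −0.28. From 2 to 4 they were nearly balanced, with 1699 and 1749. The classes kept the deposited means, which were higher in kidney for most genes. A gene of low mean could pass the filter through the 3 libraries of a single tissue. How far the filter shaped the counts of the lower classes was not tested.

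The gene with the largest difference towards liver was ENSBTAG00000001638. Its liver libraries held 5601, 13267 and 11018 FPKM and its kidney libraries 24.97, 8.65 and 6.24 FPKM. The lowest liver library lay far above the highest kidney library, and kidney 1 was the highest of the kidney libraries. The difference was 9.58 ± 0.52 on the log2(FPKM + 1) scale (limma SE, adjusted p = 1.70e-06), and 10.45 ± 0.53 after median ratio scaling (limma adjusted p = 3.64e-06).

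The next was ENSBTAG00000022120, with 7785, 12655 and 13540 FPKM in liver and 30.4, 10.8 and 7.94 FPKM in kidney. Its libraries took the same order as those of the first gene in kidney, and liver 1 was the lowest liver library for both. The difference was 9.53 ± 0.48 on the log2(FPKM + 1) scale (limma SE, adjusted p = 1.19e-06). Mean levels in kidney were 0.133% and 0.145% of those in liver for these genes. In cattle heart, which did not enter the comparison, they held 2.002% and 1.916% of the liver mean.

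Towards kidney, ENSBTAG00000009904 had the largest difference. It held 273, 263 and 385 FPKM in the kidney libraries and 0.110, 0.159 and 0.058 FPKM in the liver libraries, so that no liver library reached the level of 0.5 FPKM. The difference was −8.10 ± 0.20 on the log2(FPKM + 1) scale (limma SE, adjusted p = 3.24e-07). The second was ENSBTAG00000037539, with 558, 577 and 469 FPKM in kidney and 0.706, 0.991 and 2.98 FPKM in liver. Its kidney libraries were close together while liver 3 lay above the other liver libraries. The difference was −7.81 ± 0.32 (limma SE, adjusted p = 5.15e-07), and −7.07 ± 0.37 after median ratio scaling (limma adjusted p = 4.59e-06). Heart held 0.038% and 0.055% of the kidney mean of these genes.

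Not every abundant gene could be placed. ENSBTAG00000017121, singled out after its values were seen, held 14249 and 17199 FPKM in liver 2 and liver 3 but was listed at 0 in liver 1, and its kidney libraries held 117, 37.7 and 19.0 FPKM. It was not called (3.80 ± 3.27, limma adjusted p = 0.319). Without liver 1 it was called, at 8.44 ± 0.69 (limma adjusted p = 8.69e-05). Since exact zeros may stand for estimates that failed, these genes were counted: 62 of the genes tested were at 0 in a single library of a tissue and above 0.5 FPKM in the other 2. Leaving out these 62 genes gave 9825 calls in place of 9823. ENSBTAG00000043568, the gene with the highest mean over the 6 libraries, was likewise chosen after its values were seen. It held 26916, 1657 and 18403 FPKM in liver and 19043, 17114 and 4454 FPKM in kidney. The ranges overlapped and it was not called (−0.27 ± 1.10, limma adjusted p = 0.833).

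**Figure D3:**
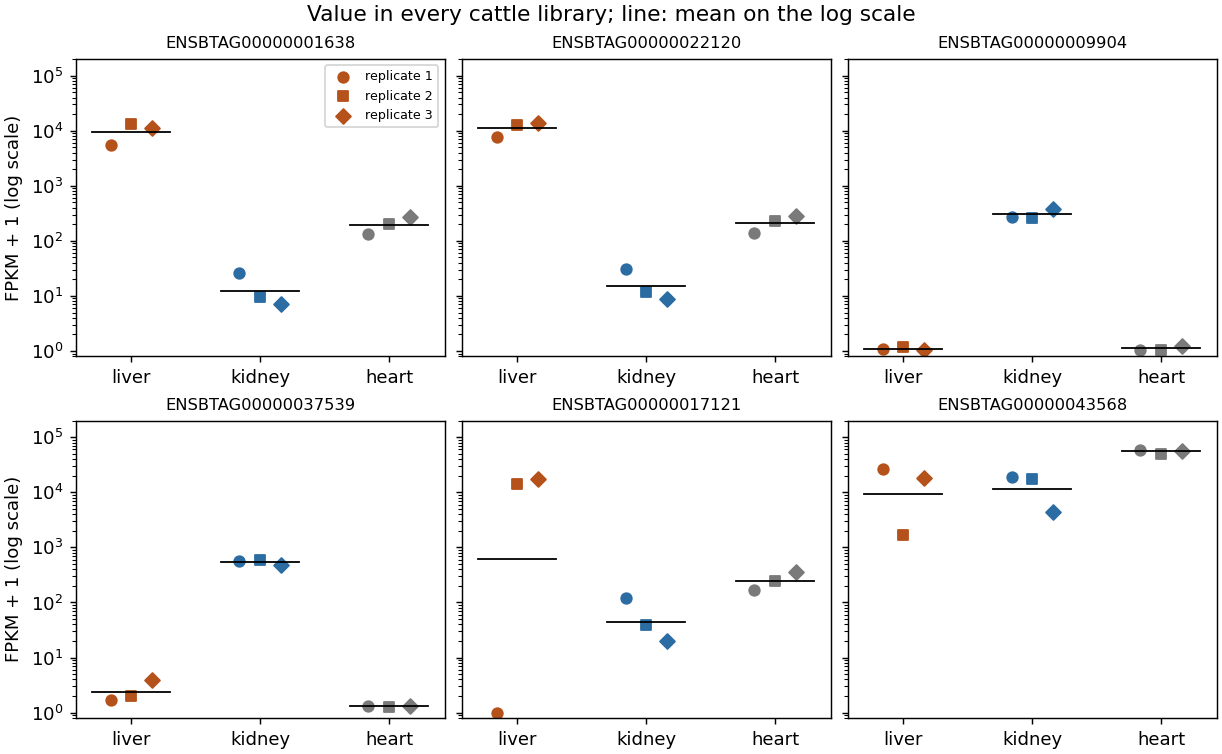
FPKM + 1 on a log axis in each cattle library of liver, kidney and heart for the 4 genes with the largest differences and for 2 abundant genes that were not called, with 1 marker shape per replicate number and a line at the mean on the log scale. The liver and kidney libraries of the first 4 genes do not overlap, whereas ENSBTAG00000017121 is at 0 FPKM in liver 1 and at 14249 and 17199 FPKM in the other liver libraries.

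The 281 genes at least 5 higher in liver were defined by this comparison, so their levels are a description. Their mean in liver ranged from 37.0 to 12127 FPKM with a median of 200 FPKM, and 42 of them exceeded 1000 FPKM. Together they held 30.3%, 39.4% and 37.5% of the summed FPKM of the liver libraries and 0.205%, 0.111% and 0.093% of that of the kidney libraries. The libraries of the tissues did not overlap for any of the 281, beside 76.6% without overlap over all genes tested. A called difference of this size nearly assures that. All 281 were called in the same direction after median ratio scaling, which itself moves genes towards liver. None of them was listed at 0 in every kidney library, and 62 stayed at or below 0.5 FPKM in all of these.

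The levels of these genes in kidney took a like order of libraries from gene to gene. Relative to the mean of liver, the median over the 281 genes was 0.524% in kidney 1 (quartiles 0.368% and 0.778%), 0.202% in kidney 2 (0.122% and 0.378%) and 0.110% in kidney 3 (0.071% and 0.314%). Kidney 1 was the highest kidney library for 246 of the 281 genes and kidney 3 the lowest for 206. In heart, 254 of the 281 genes (90.4%) lay between 1% and 5% of their liver mean, with a median of 1.94%. Heart 3 was the highest heart library for 235 genes and heart 1 the lowest for 213. What part of these levels arose in kidney or heart cells was not tested. For the 20 genes of the set with the highest liver means, from 2436 to 12127 FPKM, the median was 0.526%, 0.199% and 0.085% of the liver mean in kidney 1, 2 and 3, and 1.35%, 1.79% and 2.68% in heart 1, 2 and 3.

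The 59 genes at least 5 higher in kidney were fewer and reached levels as high. Their mean in kidney ranged from 34.8 to 16811 FPKM with a median of 216 FPKM, and 9 exceeded 1000 FPKM. They held 5.77%, 5.82% and 17.2% of the summed FPKM of kidney 1, 2 and 3, and between 0.045% and 0.165% of that of the liver libraries. In FPKM, kidney 3 stood apart most in the 2 highest genes of the set. For these, kidney 1, 2 and 3 held 8187, 8050 and 34195 FPKM and 3278, 3359 and 28226 FPKM. Relative to the kidney mean, kidney 3 stood as far apart in less abundant genes. The gene of rank 12 by kidney mean held 27.2%, 29.4% and 243% of that mean in kidney 1, 2 and 3. Without the 2 highest genes the set held 3.70%, 3.78% and 6.53% of the kidney libraries, so that kidney 3 remained the highest. It was the highest kidney library for 34 of the 59 genes and the lowest for 24. The 2 highest genes were both called (−6.74 ± 0.74, limma adjusted p = 7.53e-05, and −6.55 ± 0.95, limma adjusted p = 3.64e-04), since their liver libraries did not exceed 203 FPKM. All 59 genes were called in the same direction after median ratio scaling.

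The kidney set differed from the liver set in its level elsewhere. Relative to the mean of kidney, the median over the 59 genes was 0.375%, 0.964% and 1.14% in liver 1, 2 and 3. Liver 1 was the lowest liver library for 41 of the 59 genes. In heart the median was 0.513% of the kidney mean, 41 genes lay below 1% and 13 (22.0%) between 1% and 5%. Only 2 of the 59 reached 50% or more of the kidney mean in heart, and 2 of the 281 liver genes did so relative to liver. No test was made between the sets, because both were chosen by the differences described.

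**Figure D4:**
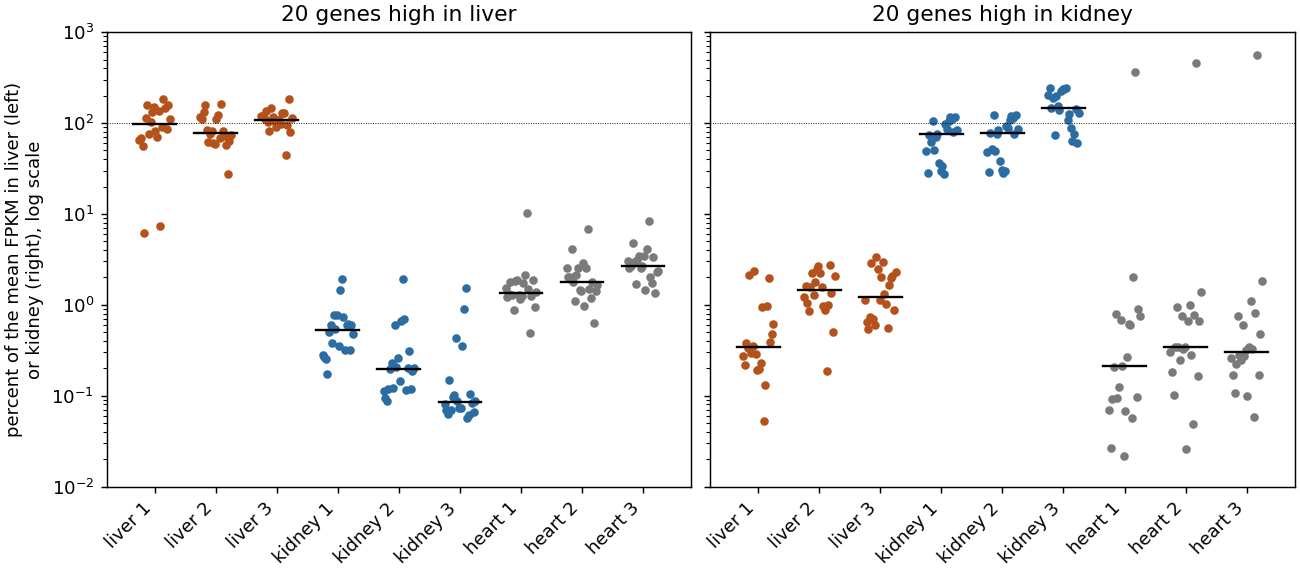
Level in each cattle library as a percent of the mean FPKM in liver for the 20 most abundant genes at least 5 higher in liver (left), and of the mean FPKM in kidney for the 20 most abundant genes at least 5 higher in kidney (right), on a log axis. Points are genes and bars medians. On the left the medians are 0.526%, 0.199% and 0.085% in kidney 1, 2 and 3 and 1.35%, 1.79% and 2.68% in heart 1, 2 and 3.

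The most abundant genes were divided between the tissues. Of the 100 genes with the highest mean in each tissue, 26 were shared. Of the 100 of liver, 68 were called higher in liver, 11 higher in kidney and 21 were not called, with a median difference of 5.96. Of the 100 of kidney, 83 were called higher in kidney, none higher in liver and 17 were not called, but their median difference was −1.69. Ranking by the level in a tissue favours genes that are higher in it, so these counts are a description. Over all genes tested, 58.2% were called higher in kidney and 14.6% higher in liver. Genes called higher in liver held 45.7%, 55.6% and 52.4% of the summed FPKM of the liver libraries but 3.51%, 3.47% and 3.11% of the kidney libraries. Genes called higher in kidney held 67.9%, 68.0% and 74.1% of the kidney libraries and still 19.8%, 18.7% and 17.6% of the liver libraries.

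Abundance was also more concentrated in liver. The 1000 most abundant genes of a library held between 76.9% and 82.3% of its summed FPKM in liver (79.7% ± 2.69, SD, n = 3) and between 71.4% and 74.2% in kidney (72.4% ± 1.56), without overlap. To reach 50% of the sum, the liver libraries needed 118, 126 and 81 genes and the kidney libraries 145, 154 and 124, where liver 2 lay above kidney 3. Genes above 10 FPKM numbered 4700, 4530 and 4135 in liver and 6450, 6482 and 6160 in kidney. Above 100 FPKM the tissues overlapped, with 598 to 734 genes in liver and 618 to 643 in kidney. Above 1000 FPKM kidney again held more, with 83 to 93 genes against 61 to 78 in liver.

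**Figure D5:**
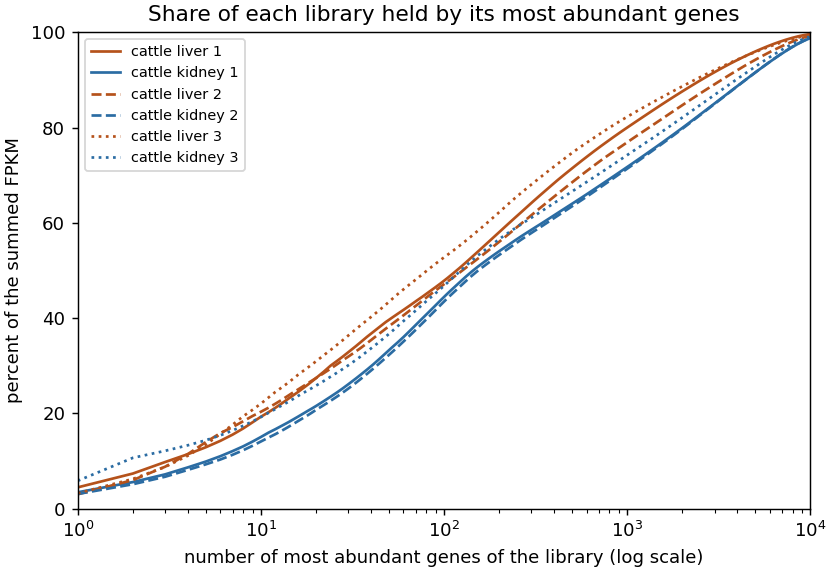
Percent of the summed FPKM (vertical) held by the most abundant genes of each library (horizontal, log axis) for 3 liver and 3 kidney libraries. At 1000 genes the liver curves lie between 76.9% and 82.3%, above the kidney curves at 71.4% to 74.2%, whereas for the single most abundant gene kidney 3 (5.84%) lies above the liver libraries (3.01% to 4.46%).

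Genes present in a single tissue were counted at 0.5 FPKM. In all 6 libraries 10705 genes exceeded that level and in none 10061. A further 398 genes exceeded it in all liver libraries and in no kidney library, and 907 in all kidney libraries and in no liver library. The liver genes were at higher levels, with a median of 5.75 FPKM against 1.69 FPKM for the kidney genes. Of the liver genes 152 (38.2%) exceeded 10 FPKM on average, and of the kidney genes 50 (5.51%). The larger number in kidney depended on the scaling: after median ratio scaling the numbers were 541 for liver and 543 for kidney. At a level of 1 FPKM they were 469 and 1117, and at 0.1 FPKM 237 and 554. In heart, 114 of the 398 liver genes (28.6%) and 241 of the 907 kidney genes (26.6%) exceeded 0.5 FPKM in all 3 libraries. Listed at exactly 0 in the whole of the other tissue were 29 of the 398 liver genes and 66 of the 907 kidney genes.

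Heart gave a further level beside the comparison. Among the 1514 genes called at least 1 higher in liver (11.2% of the genes tested), the mean of the heart libraries was nearer to kidney for 1201 and nearer to liver for 313 (20.7%). It lay below both tissues for 466 and above both for 174. Among the 4996 genes called at least 1 higher in kidney (37.1%), heart was nearer to liver for 3664 and nearer to kidney for 1332 (26.7%), below both for 1863 and above both for 605. Most genes that differed between liver and kidney were thus closer in heart to the lower of the pair, with deposited values. The sets were chosen by the difference between liver and kidney, and the heart libraries were not scaled. Whether the position of heart follows from that choice or from its own scale was not tested.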

How the data were processed

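Libraries were strand-specific (dUTP) messenger RNA libraries, per the labels. According to the study's methods, tissues came from unrelated adult females, reads were mapped with TopHat to UMD 3.1 and quantified with Cufflinks 2.2.1. The authors deposited log2(FPKM + 1) per gene and library on the log2 scale, and FPKM was recovered by inversion. The annotation release is not given in the sources used here. The table held no counts, so depth is unknown, and no counting intervals are given. FPKM is relative, so very abundant transcripts lower all others.

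Columns were matched to samples by the column names in the descriptions and grouped by title. Genes that passed the level of 0.5 FPKM in 3 or more of these 6 libraries were fitted with limma 3.58.1 (R 4.3.3): 1 mean per tissue, eBayes with trend, and Benjamini-Hochberg adjustment over all 13476 genes at 0.05, with a pseudocount of 1. The fit was tested on simulated data. P-values measure the spread between these libraries, and the fit did not use that the tissues shared animals. It took the libraries as independent and gave each gene a single variance, although the median SD was 0.29 in liver and 0.15 in kidney. Whether kidney 1 and kidney 2, the closest pair, were independent was not tested. With kidney 1 and kidney 2 averaged, 8677 genes were called. Median ratio factors used genes above 0 in all 6 libraries. Python 3.11.15, numpy 2.4.6, pandas 2.3.3 and matplotlib 3.10.9 were used.

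The comparison and rules were chosen with earlier results of these data known. Without symbols, the rule named the 2 called genes with the largest difference in each direction whose libraries did not overlap and that were not at 0 in a whole tissue. The size and level classes, the 20 highest genes, the heart levels and 2 further genes were chosen after the values were seen. Gene lists, their shares, cell type markers and sequences, planned by symbol, were not used here. Alternatives were other pseudocounts, filters and scalings, a fit with 9 libraries, a minimum difference, a replicate block and libraries left out.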

Additional observations from a re-analysis of the deposited data

How the results depend on the processing

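The limits are the number of libraries, the unknown depth and the lack of gene names. The 9823 calls stayed within 1.5 times under 20 alternatives, and requiring a difference of at least 1 left 6510 by construction. Leaving out each library gave 8665 to 10248 calls, 19.3% to 21.6% of them higher in liver, and median differences of −0.77 to −0.68. The share of calls higher in liver, 20.1% with deposited values, was 50.8% after median ratio scaling, 40.2% after quantile normalization and 23.3% with the minimum difference. The median difference of −0.74 was −0.0052 and −0.18 under these scalings, which centre the libraries, −0.92 with a pseudocount of 0.1 and −0.45 without a filter. The genes at least 5 apart, a count added later, numbered 463 towards liver and 192 towards kidney with a pseudocount of 0.1, 153 towards liver with the study's filter of 80% and 32 towards kidney after median ratio scaling. Genes in a single tissue numbered 237 (liver) and 554 (kidney) at 0.1 FPKM and 543 (kidney) after median ratio scaling. They numbered 418 to 490 and 954 to 1158 without 1 library, where fewer libraries make the criterion easier. The cause of the other changes was not tested. The 4 named genes kept call and direction in every alternative that held them. ENSBTAG00000043568 was not called in any but changed sign, to 0.64 after median ratio scaling, 0.063 with kidney 1 and 2 averaged and between −1.04 and 0.97 when single libraries were left out. ENSBTAG00000017121 was called without liver 1 (8.44), without liver 1 and kidney 3 (7.86) and with limma array weights (5.16), the last 2 chosen after seeing the data.

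The livers and kidneys came from the same animals, but whether a replicate number marks an animal is not given in the sources used here, and with 3 pairs the data could not settle it: the correlation of deviations from the tissue mean was 0.10, −0.16 and −0.06 for numbers 1, 2 and 3, and liver 2 and liver 3 were closer to another number. With a replicate block, 9582 genes were called, 9464 of them also without it. The share of calls higher in liver was 20.2% in place of 20.1%, and no named gene changed its call.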
